A study of Homo sapiens with 6 samples.

Results

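Cells given the microRNA miR-638 were compared directly with cells given antagomiR-638, an oligonucleotide built to bind and block that microRNA. The comparison rests on 4 of the 6 Illumina HumanHT-12 v4 arrays of the study, 2 with miR-638 and 2 with antagomiR-638, and the other 2 arrays, from mock transfected cells, were used to place each difference. The RNA came from 1 melanoma cell line of human origin, SK-Mel-147, taken 48 h after lipofection, so that a single line stands for melanoma here. The control cells, called mock here, are mock transfected by their titles, carry a non-targeting control by the series description and a control antagomiR by a legend of the study. The arrays are named duplicates and no source calls them separate cultures, so their spread may be technical and p-values cover that spread only, and 2 arrays per group limit the precision of every value.

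A microRNA is loaded into an Argonaute protein and pairs through its seed, a short stretch near its 5′ end, with sites in messenger RNAs, which are then destabilised or translated less. A transcript held down by the microRNA in the cell is therefore looked for among those lower with the added microRNA and higher with its inhibitor. A gene that shifts with 1 treatment alone differs between the treatments as well, so that the place of mock carries information that the direct comparison does not. Mature miR-638 is printed here because its seed, bases 2 to 8 in capitals, defines which transcripts it can pair with (RefSeq, GRCh38.p14, chr19:10718419-10718443, plus strand).
hsa-miR-638: aGGGAUCGcgggcggguggcggccu
The 25-base RNA holds 80.0% G and C, and of 2545 human mature microRNAs in the RefSeq table only miR-638 itself carried this seed. Its locus lies within the bounds of DNM2, the gene of the membrane-cutting protein dynamin 2. The only array probe for the miR-638 gene read 4.43 and 4.63 log2 intensity with miR-638, 4.58 and 4.40 with antagomiR-638 and 4.40 and 4.44 in mock. It was detected on 1 of 6 arrays and did not pass the detection filter, and the labels therefore have no check in these data.

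Probes entered the tests if both arrays of miR-638, or both of antagomiR-638, had a detection p-value under 0.05, which left 19474 of 47319 probes and 11251 named genes. Between 41.8% and 44.1% of probes were detected per array. Across kept probes, which are not independent replicates, miR-638 arrays correlated with antagomiR-638 arrays at 0.975 to 0.977 and duplicates with each other at 0.994 to 0.995 (Pearson's r). Of 16 melanocyte lineage genes 5 were kept. SOX10, a transcription factor of that lineage, read 10.08 and 10.17 log2 intensity with miR-638, 10.36 and 10.29 with antagomiR-638 and 10.05 and 10.36 in mock, while the pigment genes TYR, TYRP1, PMEL and MLANA were not kept. Of the markers of other cells, 1 of 7 keratinocyte, 3 of 7 leukocyte, 1 of 7 fibroblast and 0 of 3 endothelial genes were kept, and the defining leukocyte genes PTPRC and CD3E were not among them. The summed intensity of the kept leukocyte markers CD14, CD68 and CD74 was 2862 to 3185 with miR-638, 5112 to 5675 with antagomiR-638 and 3160 to 3335 in mock, with CD68 (-0.87) and CD74 (-0.78) lower with miR-638 and CD14 not called (0.22). The kept fibroblast marker LUM was also lower (-0.66), at an intensity of 448 to 456 with miR-638, 704 to 720 with antagomiR-638 and 574 to 579 in mock. The part of these markers in the results was not tested.

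In the direct comparison 899 genes (7.99% of 11251) were higher with miR-638 than with antagomiR-638 and 971 (8.63%) were lower, 16.6% of all genes in both directions (limma, adjusted p of 0.01 or less, two-sided). By at least 2-fold, 254 were higher and 265 lower, and 4828 genes had an unadjusted p under 0.05. The median difference over all genes was -0.01 on the log2 scale. Of the 1870 called genes, 94 had been kept through 1 of the groups only, 23 of them not detected on either antagomiR-638 array and 30 on neither miR-638 array. Of 527 called genes with 2 or more kept probes, all probes had the same sign in 493. Leaving out miR-638 replicate 1 gave 884 calls and leaving out its replicate 2 gave 887. The count was 580 without antagomiR-638 replicate 1 and 669 without antagomiR-638 replicate 2, and of the 1870 called genes 850, 870, 576 and 666 stayed called in these 4 fits, in that order.

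The mock arrays were used to tell opposite shifts from one-sided ones. Against mock, 232 genes (2.06%) were higher and 138 (1.23%) lower with miR-638, whereas 693 (6.16%) were higher and 560 (4.98%) lower with antagomiR-638. The comparisons with mock share the same 2 mock arrays. Of the 1870 genes called between the treatments, 819 were called with antagomiR-638 only, 192 with miR-638 only, 16 with both on the same side of mock and 23 with both on opposite sides, and 820 were called in neither comparison with mock. The position of mock was set to 0 at the antagomiR-638 mean and to 1 at the miR-638 mean. Its median was 0.697 over the genes higher with miR-638 and 0.683 over those lower, so that mock lay nearer to miR-638 for most called genes. Mock lay between the treatments for 1361 of them (72.8%), beyond miR-638 for 396 and beyond antagomiR-638 for 113. Whether mock departed from the midpoint of the treatments was tested in the same model: it did for 511 of all genes (4.54%) and for 271 of the 1870. For 109 of these 271 mock lay nearer to miR-638 among genes higher with miR-638, and for 111 among genes lower with it, against 38 and 13 genes for which it lay nearer to antagomiR-638.

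**Figure D1:**
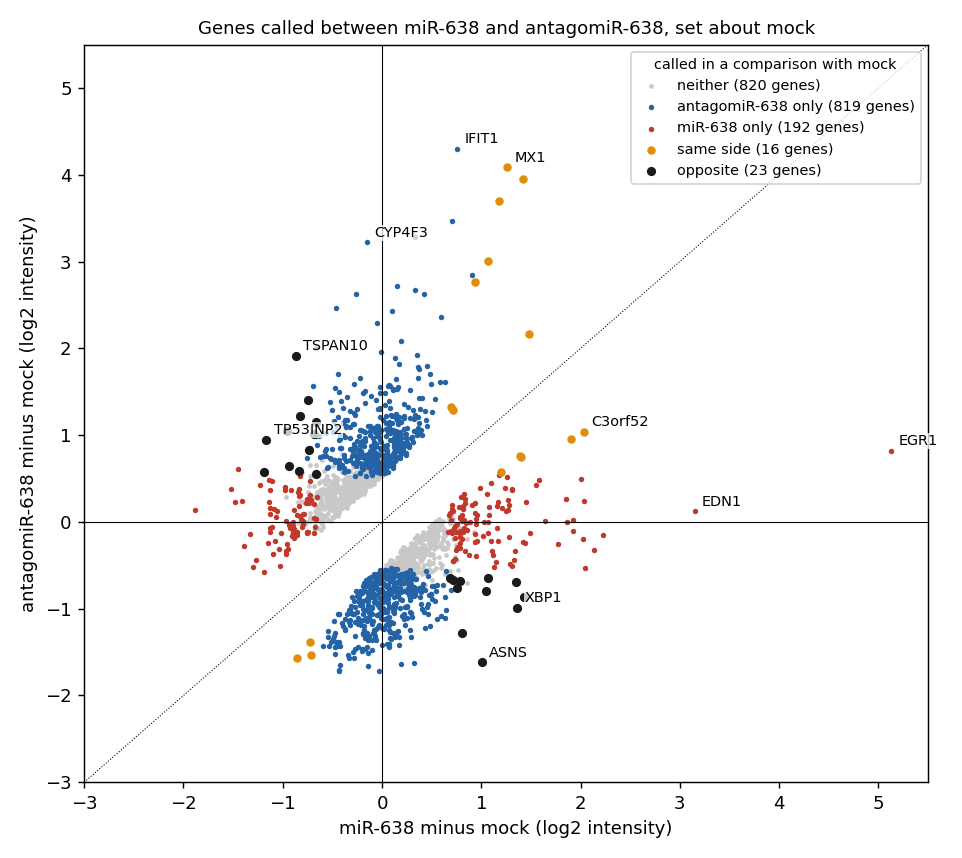
Each point is 1 of the 1870 genes called between miR-638 and antagomiR-638, with its miR-638 minus mock difference on the horizontal axis and its antagomiR-638 minus mock difference on the vertical axis, both in log2 intensity; the dotted diagonal marks equal values with both treatments, and colours mark which comparisons with mock were called. The 819 genes called with antagomiR-638 only lie on both sides of the vertical axis, for example ALDH3B1 at -0.76 and IFIT1 at 0.76. EGR1 and EDN1 lie far out along the horizontal axis, and the 23 opposite genes lie to the upper left and lower right of the origin.

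The largest positive difference was that of EGR1, a transcription factor made within minutes of growth or stress signals. EGR1 read 10.59 and 9.85 log2 intensity with miR-638, 5.81 and 6.01 with antagomiR-638 and 5.13 and 5.05 in mock. No arrays of the 3 groups overlapped, and both treatments lay above mock, antagomiR-638 by 0.82 (adjusted p = 0.0228, not called, but called without either miR-638 array). The difference was 4.31 ± 0.21 (SE, n = 2 arrays per group, limma adjusted p = 8.16e-06), and mock lay beyond antagomiR-638, at position -0.19. EDN1, which encodes the vasoactive peptide endothelin 1, read 9.30 and 8.87 with miR-638, 6.02 and 6.08 with antagomiR-638 and 6.05 and 5.82 in mock, a difference of 3.03 ± 0.16 (adjusted p = 1.07e-05). MYC, the growth-promoting transcription factor, read 9.90 and 9.88 with miR-638, 7.52 and 7.35 with antagomiR-638 and 7.91 and 7.59 in mock (2.45 ± 0.14, adjusted p = 1.27e-05, and 2.72 at its other kept probe). For EGR1, EDN1 and MYC the midpoint test placed mock nearer to antagomiR-638 (adjusted p = 7.8e-05, 0.00036 and 0.00236), and the direct call stayed whichever of the 6 arrays was left out.

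Among the 15 largest positive differences were the genes of secreted inflammatory proteins. CXCL2, a chemokine for neutrophils, read 9.86 and 9.86 with miR-638, 7.14 and 7.43 with antagomiR-638 and 7.69 and 7.94 in mock (2.58 ± 0.14). IL1A, the gene of interleukin 1 alpha, read 11.36 and 11.74 with miR-638, 9.62 and 9.45 with antagomiR-638 and 9.94 and 9.63 in mock (2.02 ± 0.16). Both were well above the detection limit in all groups, and mock stood at 0.21 and 0.13, near antagomiR-638. CCL20, a chemokine for dendritic cells and lymphocytes, TNF, the gene of tumour necrosis factor, and CD274, which encodes the immune checkpoint ligand PD-L1, were not detected on either antagomiR-638 array. They were at least 5.02-fold, 3.07-fold and 3.19-fold higher with miR-638. Their mock values, 4.69 and 4.64 for CCL20, 4.28 and 4.24 for TNF and 4.28 and 4.35 for CD274, lay near the antagomiR-638 values of 4.51 and 4.53, 4.14 and 4.18, and 4.31 and 4.37, none of the 3 shifts being called, although CCL20 was detected on both mock arrays. CHAC1, whose product degrades glutathione, was at least 3.79-fold higher with miR-638.

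**Figure D2:**
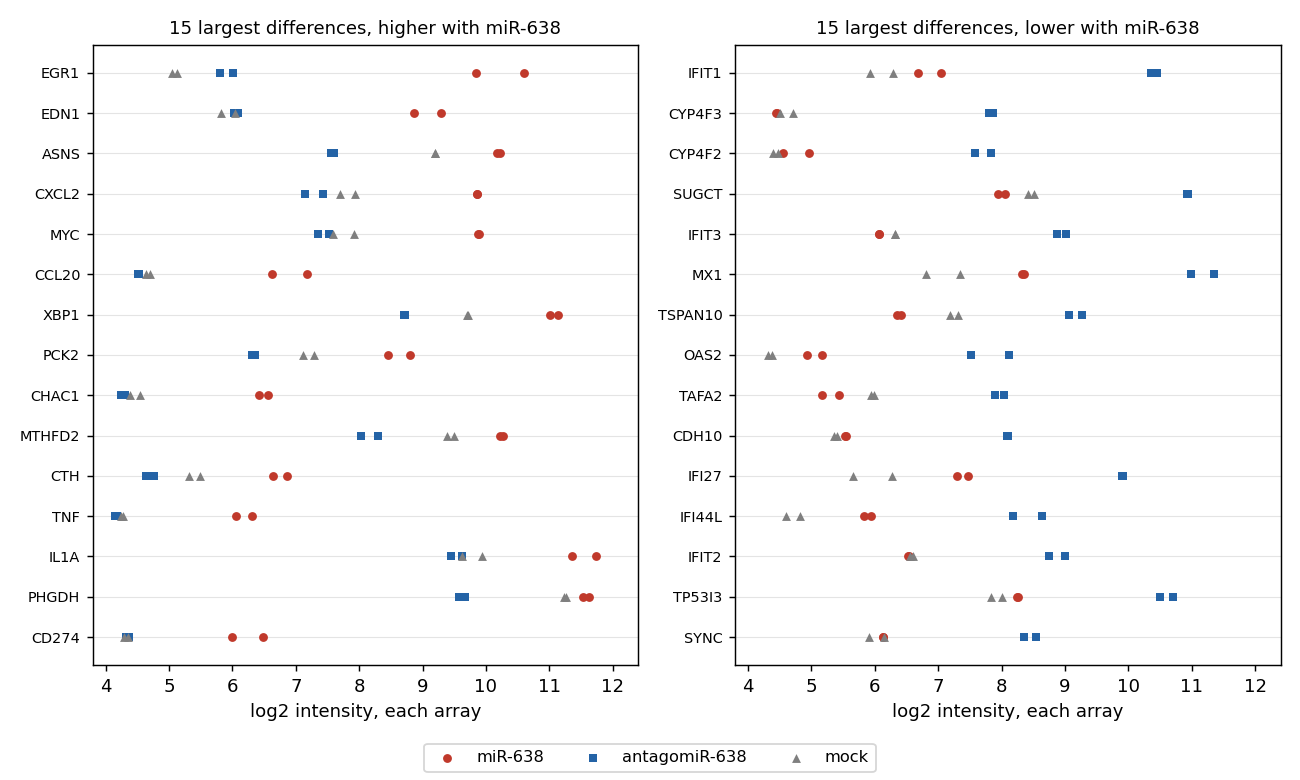
Log2 intensity of each array (horizontal axis) for the 15 genes with the largest positive and the 15 with the largest negative miR-638 minus antagomiR-638 difference, with miR-638 as red circles, antagomiR-638 as blue squares and mock as grey triangles. In the left panel mock sits near antagomiR-638 for EDN1, CCL20, TNF and CD274, below it for EGR1 and between the treatments for ASNS, XBP1 and MTHFD2, and in the right panel it sits with miR-638 for CYP4F3, CDH10, IFIT2 and SYNC and below it for MX1, IFI27 and IFI44L.

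The largest negative difference was that of IFIT1, whose product binds viral RNA. IFIT1 read 7.04 and 6.68 with miR-638, 10.46 and 10.35 with antagomiR-638 and 5.92 and 6.29 in mock, so that the arrays of both treatments lay above mock, although only the antagomiR-638 shift was called. The difference was -3.55 ± 0.16 (SE, n = 2 arrays per group, limma adjusted p = 6.82e-06), although its other kept probe gave -0.58. That probe was dim, with a mean log2 intensity of 4.57 over the 6 arrays, and was not detected with miR-638. The detection limit lay at 4.55 to 4.60 per array. CYP4F3 and CYP4F2, near copies of each other that encode hydroxylases of leukotrienes and fatty acids, differed by -3.38 ± 0.12 and -2.95 ± 0.16, and their probes may read both. The other kept probe of CYP4F3 gave -0.20 and was not called (adjusted p = 0.459), but it was near the detection limit, with a mean log2 intensity of 4.60. At its brighter probe CYP4F3 read 7.80 and 7.86 with antagomiR-638 and was not detected with miR-638 (4.44 and 4.46), which makes it at least 9.55-fold higher with antagomiR-638, and mock read 4.70 and 4.51. SUGCT, which encodes a mitochondrial coenzyme A transferase, read 7.95 and 8.06 with miR-638, 10.95 and 10.92 with antagomiR-638 and 8.42 and 8.51 in mock (-2.93 ± 0.11). In these 4 genes the antagomiR-638 arrays stood apart from all others.

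Further genes of this group encode a secreted brain peptide, TAFA2 (-2.67 ± 0.13), a cell adhesion cadherin, CDH10 (-2.56 ± 0.11), and an intermediate filament protein, SYNC (-2.32 ± 0.13). CDH10 read 5.54 and 5.53 with miR-638, 8.08 and 8.11 with antagomiR-638 and 5.35 and 5.41 in mock. Mock stood at position 0.75 for TAFA2, 1.06 for CDH10 and 1.05 for SYNC, and the midpoint test was called for all 3. Without the normexp background step and with intensities floored at 16, the direct calls of MX1, IFI27, CCL20, IL1A and CD274 were lost. Their limma adjusted p was then 0.012 to 0.021. The direct calls of all 30 genes with the largest differences stayed whichever array was left out.

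Interferon-stimulated genes, which encode the antiviral programme switched on by type I interferon, were the group furthest to the antagomiR-638 side. Of 50 listed, 48 were kept. Of these 38 were lower with miR-638 than with antagomiR-638, against 8.63% of all genes, and 0 were higher (limma; 46 and 0 at an unadjusted p under 0.05). The median difference was -0.99, against -0.01 over all genes, and all 48 had a negative sign, from -3.55 for IFIT1 to -0.04 for XAF1. Of the 48, 5 (OASL, DHX58, IFITM1, BST2 and CMPK2) were kept through the antagomiR-638 arrays only, which favours a negative sign, and all of these but OASL were among the 38. The count fell to 24 without antagomiR-638 replicate 1 and lay between 28 and 36 without any other array, and was 15 without the normexp background step and with intensities floored at 16.

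The pattern about mock was not that of opposite shifts. With antagomiR-638, 39 of the 48 were above mock (6.16% of all genes) and 0 below (limma; 44 and 0 at an unadjusted p under 0.05), with a median of 1.21, and with miR-638 5 were above (2.06%) and 0 below (17 and 3), with a median of 0.19. MX1, the gene of an antiviral GTPase, read 8.36 and 8.32 with miR-638, 11.34 and 10.99 with antagomiR-638 and 6.81 and 7.35 in mock, and the groups did not overlap. IFI27, the gene of a mitochondrial membrane protein, read 7.47 and 7.29 with miR-638, 9.92 and 9.91 with antagomiR-638 and 5.65 and 6.28 in mock. IFI6, IFI44L and IRF7, the last a transcription factor that amplifies interferon production, followed the same order of levels, with mock at 1.55, 1.47 and 1.51. These 5 were called above mock with either treatment. The miR-638 call of each depended on the arrays used: MX1 and IFI6 kept it in 1 of 6 fits with an array left out, IFI27 and IFI44L in 2 and IRF7 in 3. The other kept probe of IFI44L had a miR-638 minus mock shift of 0.10, against 1.18 at the brighter probe. Those of IFI6 and IRF7 had shifts of 0.66 and 0.62, against 1.07 and 0.94. Mock lay beyond miR-638 for 29 of the 38 called interferon-stimulated genes and between the treatments for 9, and departed from the midpoint for 26.

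Promoter windows of 5 of these genes are printed because the interferon-stimulated response element, GAAANNGAAA on either strand, defines the group's shared control by interferon. The element is in capitals, and the windows are RefSeq sequence of GRCh38.p14, written 5′ to 3′ in the direction of the gene.
IFIT1 (chr10:89392510-89392539, plus strand): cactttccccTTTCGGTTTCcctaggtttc
IFIT3 (chr10:89327865-89327894, plus strand): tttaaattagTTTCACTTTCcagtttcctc
IFI27 (chr14:94110618-94110647, plus strand): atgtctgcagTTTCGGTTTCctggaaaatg
EPSTI1 (chr13:42992272-42992301, minus strand): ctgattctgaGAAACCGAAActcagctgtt
SAMD9 (chr7:93118096-93118125, minus strand): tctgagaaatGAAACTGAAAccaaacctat
The element was present in 26 of 39 matched promoters of the list (66.7%), against 2.83% of 9137 matched promoters of genes tested and 3.65% of all 27305 promoters in the table, each spanning 250 bases before to 50 after the start. A match describes the letters and does not show a site in use.

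Genes of mitosis formed the group furthest to the miR-638 side. Of 52 kept, 51 were higher with miR-638 than with antagomiR-638, against 7.99% of all genes, and 0 were lower (limma; 51 and 0 at an unadjusted p under 0.05). The median difference was 1.22, and only MYBL2 (0.27) was not called. Of the 52, 1 had been kept through 1 of the groups only. The count lay between 40 and 51 with 1 array left out, and was 30 without the normexp background step and with intensities floored at 16. In RNA of a whole culture, fewer cells in mitosis and less RNA per cell cannot be told apart.

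Against mock 6.16% of all genes were higher and 4.98% lower with antagomiR-638. With antagomiR-638, 50 of the 52 were below mock and 0 above (51 and 0 at an unadjusted p under 0.05), with a median of -1.32, and with miR-638 1 was above and 3 below (3 and 16 at an unadjusted p under 0.05), with a median of -0.10. DEPDC1, a gene of mitotic progression, read 9.53 and 9.53 with miR-638, 7.79 and 7.88 with antagomiR-638 and 9.55 and 9.56 in mock. HMMR, the gene of a spindle protein, read 9.35 and 9.33 with miR-638, 7.86 and 7.82 with antagomiR-638 and 9.12 and 9.22 in mock. In both genes mock lay with miR-638 and away from antagomiR-638, at 1.02 and 0.88. Of the 51 called genes mock lay beyond miR-638 in 32 and departed from the midpoint in 34. TTK, a kinase of the spindle checkpoint, and SKA3, a kinetochore protein, differed by 1.47 ± 0.12 and 1.66 ± 0.12. KIF20A, a motor protein of cell division, was called below mock with both treatments, at 9.27 and 9.26 with miR-638, 8.50 and 8.40 with antagomiR-638 and 9.97 and 10.00 in mock, but no fit with an array left out kept that pattern.

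The cell cycle homology region, TTTGAA on either strand, can recruit the DREAM complex, a repressor of mitotic genes. It is shown in capitals in the promoters of 5 mitotic genes, chosen because the group as a whole shared the difference (RefSeq, GRCh38.p14, in the direction of the gene). The HMMR window also holds another match, left in lower case directly before the capitals.
DEPDC1 (chr1:68497094-68497119, minus strand): ctctatgctaTTCAAAtcggcggcgg
HMMR (chr5:163460600-163460625, plus strand): gagatttgaaTTTGAAaccggtaggg
KIF4A (chrX:70290060-70290085, plus strand): ccgggacggaTTTGAAacttggcggt
CCNB2 (chr15:59105107-59105132, plus strand): cgacgcggtaTTTGAAtcctggaaca
PLK1 (chr16:23678850-23678875, plus strand): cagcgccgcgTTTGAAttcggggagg
It occurred in 32 of 45 matched mitotic promoters (71.1%) and 1 of 42 matched promoters of DNA replication genes (2.38%), against 10.2% of genes tested and 15.4% of all promoters. Cyclin B2 (CCNB2) and the mitotic kinase PLK1 differed by 1.23 and 0.92.

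DNA replication genes of the G1/S transition had a smaller median difference. Of 47 kept, 35 were higher with miR-638 than with antagomiR-638, against 7.99% of all genes, and 0 lower (limma; 41 and 0 at an unadjusted p under 0.05), with a median of 0.78. CDC25A, a phosphatase that opens S phase, read 8.92 and 8.92 with miR-638, 7.26 and 7.39 with antagomiR-638 and 8.85 and 8.64 in mock (1.59 ± 0.12, with 0.28 at its other kept probe, not called). That other probe was near the detection limit, with a mean log2 intensity of 4.70. CDC45 and MCM10, which activate the replication helicase, and PRIM1, a primase subunit, differed by 1.36, 1.25 and 1.32. Against mock 32 were lower with antagomiR-638 (4.98% of all genes), and 1 was higher with miR-638, the ribonucleotide reductase subunit RRM2 (0.84). Mock departed from the midpoint for 12 of the 35. Of the 47, 2 had been kept through 1 of the groups only. The count of 35 was 23 without either miR-638 array, 16 without antagomiR-638 replicate 1, 15 without antagomiR-638 replicate 2 and 15 with intensities floored at 16.

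**Figure D3:**
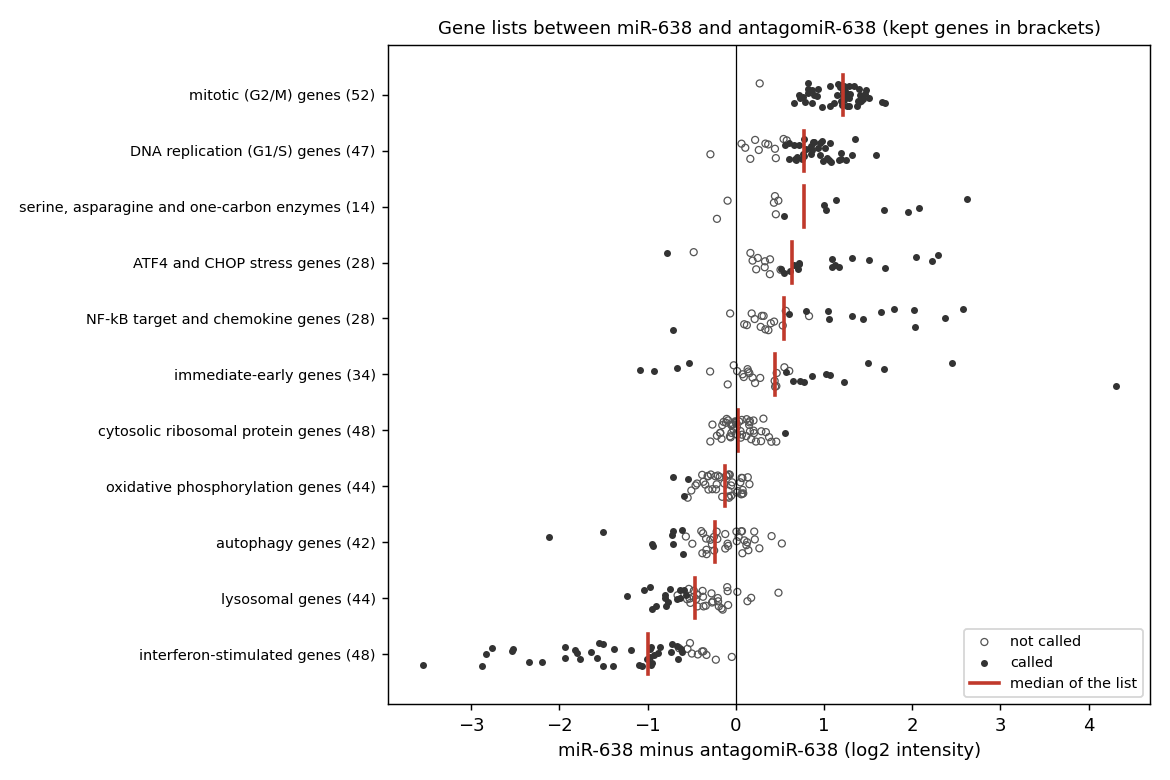
The miR-638 minus antagomiR-638 difference in log2 intensity (horizontal axis) of every kept gene of 11 gene lists, filled where limma called it and open where not, with the list median as a red line. Mitotic genes lie right of 0 with a median of 1.22, interferon-stimulated genes lie left of it with a median of -0.99, and ribosomal protein genes lie about 0 with a median of 0.03.

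Of the genes of growth arrest and cell death that the study followed up, CDKN1A, the gene of the cell cycle inhibitor p21, read 12.35 and 12.49 with miR-638, 13.78 and 13.89 with antagomiR-638 and 12.77 and 12.64 in mock (-1.42 ± 0.12, adjusted p = 8.24e-05). The groups did not overlap, and mock lay at 0.80, nearer to miR-638, where the midpoint test was not called (adjusted p = 0.0323). BAX, a gene of mitochondrial cell death, read 8.67 and 8.07 with miR-638, 8.44 and 8.87 with antagomiR-638 and 8.23 and 9.30 in mock, so that all groups overlapped (-0.28 ± 0.32, adjusted p = 0.55). TP53I3, the gene of an oxidoreductase and 1 of the 15 largest negative differences, read 8.24 and 8.26 with miR-638, 10.70 and 10.49 with antagomiR-638 and 7.83 and 8.0 in mock (-2.34 ± 0.13, with -0.34 at its other probe, not called). That other probe was near the detection limit (mean log2 intensity 4.51) and was not detected with miR-638.

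The enzymes of serine, asparagine and one-carbon metabolism, which supply amino acids and folate units for growth, were higher with miR-638 than with antagomiR-638 in 8 of 14 kept, against 7.99% of all genes, and lower in 0 (limma; 12 and 0 at an unadjusted p under 0.05), with a median of 0.77. Against mock 3 were higher with miR-638 (2.06% of all genes) and 7 lower with antagomiR-638 (4.98%). Of the 8 called genes 5 were called with antagomiR-638 only, 1 with miR-638 only and 2, ASNS and MTHFD2, on opposite sides, and the median position of mock was 0.691, against 0.690 over all called genes. ASNS, asparagine synthetase, read 10.18 and 10.22 with miR-638, 7.61 and 7.56 with antagomiR-638 and 9.19 and 9.20 in mock. The groups were well apart, and each treatment was called against mock in its own direction (1.00 and -1.62, direct difference 2.62 ± 0.11, adjusted p = 5.22e-06, and 1.69 at its other kept probe). MTHFD2, a mitochondrial folate enzyme, read 10.28 and 10.22 with miR-638, 8.30 and 8.03 with antagomiR-638 and 9.39 and 9.50 in mock (2.08 ± 0.13). PHGDH, the first enzyme of serine synthesis, read 11.62 and 11.54 with miR-638, 9.67 and 9.58 with antagomiR-638 and 11.24 and 11.27 in mock (1.95 ± 0.11). Mock stood between the treatments for ASNS and MTHFD2, at 0.62 in both. It lay closer to miR-638 for PHGDH, at 0.83, where the midpoint test was called (adjusted p = 0.0042). The count of 8 was 4 with intensities floored at 16.

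Stress genes controlled by ATF4 and its partner CHOP were also higher with miR-638 than with antagomiR-638, 17 of 28 kept with 1 lower, at a median of 0.64 and against 7.99% of all genes higher and 8.63% lower. Of the 28, 3 had been kept through 1 of the groups only, among them CHAC1 through the miR-638 arrays, which favours a positive sign. With miR-638 10 were above mock and 1 below (2.06% and 1.23% of all genes), and with antagomiR-638 1 was above and 4 below (6.16% and 4.98%). CHAC1 read 6.56 and 6.43 with miR-638, 4.24 and 4.31 with antagomiR-638 and 4.54 and 4.39 in mock, where it was not detected, as with antagomiR-638. CEBPG, a transcription factor that pairs with ATF4, read 10.13 and 10.04 with miR-638, 8.49 and 8.31 with antagomiR-638 and 8.64 and 8.66 in mock (1.69 ± 0.12, position 0.15). PCK2, a mitochondrial enzyme of phosphoenolpyruvate synthesis, and CTH, an enzyme of cysteine synthesis, were called on opposite sides of mock (direct differences 2.30 ± 0.14 and 2.05 ± 0.13). The other kept probes of PCK2 gave 1.08 and 1.42, with antagomiR-638 shifts from mock of -0.31 and -0.50. Those of CTH gave 1.02 and 0.76, with antagomiR-638 shifts from mock of -0.11 and -0.07. Both CTH probes were dim, with mean log2 intensities of 5.08 and 4.76, and each was detected on 1 antagomiR-638 array. ATF5, another factor of this response, was the 1 lower gene (-0.78). The count of 17 fell to 10 without miR-638 replicate 1, to 9 without miR-638 replicate 2 or without either antagomiR-638 array, and to 6 with intensities floored at 16. Of 18 cytosolic aminoacyl-tRNA synthetases, which load amino acids onto tRNAs, 4 (22.2%, where 16.6% of all genes were called) were higher with miR-638 and 0 lower (limma; 10 and 1 at an unadjusted p under 0.05), from AARS1 (0.91) to TARS1 (0.60), but the count was 0 without miR-638 replicate 1 or antagomiR-638 replicate 1 and 1 without miR-638 replicate 2 or antagomiR-638 replicate 2.

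The amino-acid response element to which ATF4 binds, TGATGNAA on either strand, is shown in capitals for a gene of each of the 3 groups (RefSeq, GRCh38.p14, in the direction of the gene).
ASNS (chr7:97872459-97872486, minus strand): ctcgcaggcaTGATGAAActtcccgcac
CHAC1 (chr15:40953252-40953279, plus strand): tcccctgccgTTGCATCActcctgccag
AARS1 (chr16:70289676-70289703, minus strand): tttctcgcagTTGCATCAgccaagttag
It was present in 2 of 11 matched promoters of the serine, asparagine and one-carbon enzymes (18.2%), 4 of 25 of the ATF4 and CHOP genes (16%) and 5 of 15 of the synthetases (33.3%), against 1.79% of genes tested and 3.67% of all promoters.

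Immediate-early genes, which respond to signals without new protein synthesis, and targets of NF-kB, the transcription factor of inflammation, were set against 7.99% of all genes higher and 8.63% lower with miR-638 than with antagomiR-638. Of 34 immediate-early genes 12 were higher with miR-638 than with antagomiR-638 and 4 lower, and of 28 NF-kB target and chemokine genes 12 were higher and 1 lower, with medians of 0.44 and 0.55. Against mock, 13 of the 34 were higher with miR-638 and 4 with antagomiR-638, and 10 of the 28 were higher with miR-638 and 1 with antagomiR-638, where 2.06% of all genes were higher with miR-638 and 6.16% with antagomiR-638. Through 1 of the groups only 2 of the 34 and 4 of the 28 had been kept. Of these 4, CCL20 and TNF were kept through the miR-638 arrays only, which favours a positive sign. Both were among the 12 higher NF-kB target and chemokine genes. KLF4, a transcription factor, read 8.84 and 8.98 with miR-638, 7.28 and 7.19 with antagomiR-638 and 7.48 and 7.67 in mock. KLF4 and MAFF, another transcription factor, differed by 1.68 ± 0.12 and 1.5 ± 0.14 between the treatments and had mock at 0.20 and 0.25. The median position of mock was 0.22 over the called immediate-early genes and 0.21 over the called NF-kB and chemokine genes, while the midpoint test was called for 5 of 16 and 4 of 13. The 4 lower immediate-early genes were NR4A2, SPRY2, SGK1 and JUND, at -1.09 to -0.53. The immediate-early count of 12 was 7 without antagomiR-638 replicate 1, that of 4 was 2 without miR-638 replicate 1 and 1 without any other treated array, and with intensities floored at 16 the counts of 12 and 12 were 6 and 5.

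The promoter of EGR1 is shown because the gene had the largest difference of all and carries the CArG box, the site of serum response factor, which is in capitals (RefSeq, GRCh38.p14, in the direction of the gene).
EGR1, first box (chr5:138465364-138465393, plus strand): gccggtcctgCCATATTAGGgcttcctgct
EGR1, second box (chr5:138465386-138465415, plus strand): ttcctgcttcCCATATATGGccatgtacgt
Of 25 matched immediate-early promoters EGR1 was the 1 that held the box in this window (4%), against 1.14% of genes tested and 1.29% of all promoters.

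**Figure D4:**
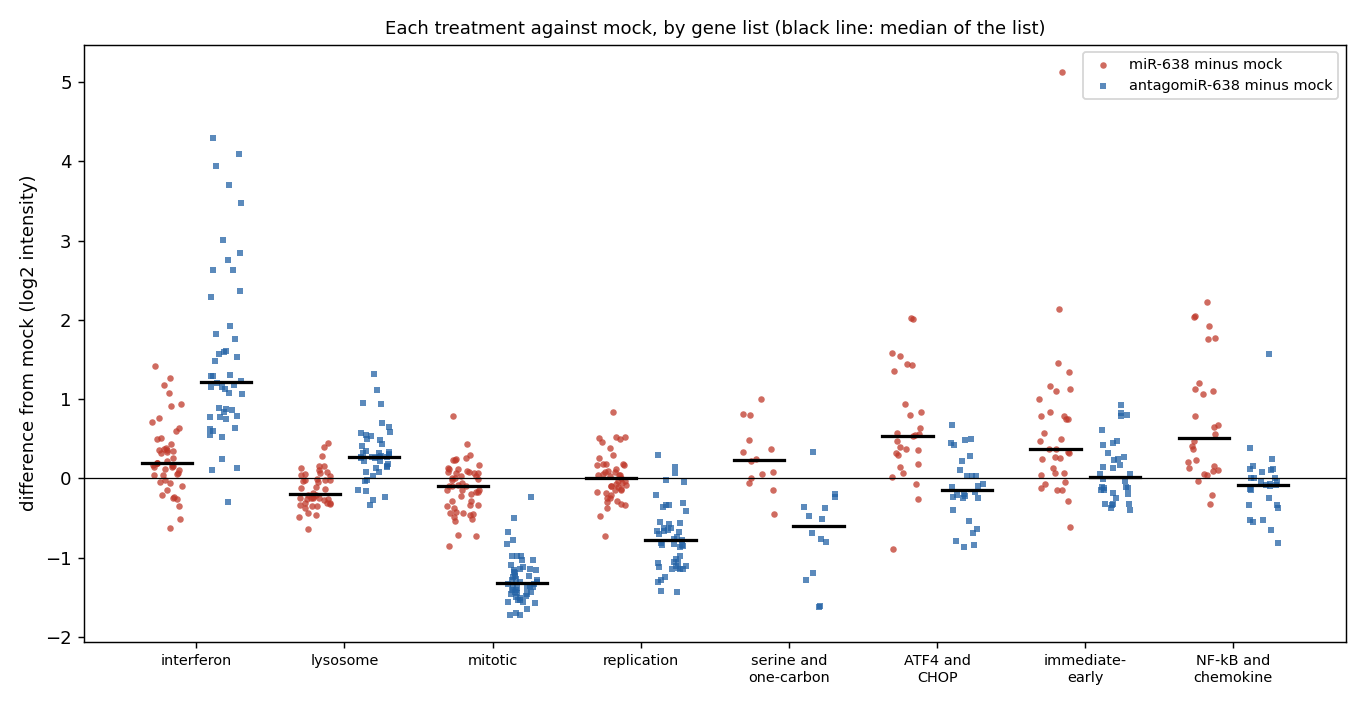
Difference of each treatment from mock in log2 intensity (vertical axis) for the kept genes of 8 lists, with miR-638 minus mock as red circles on the left and antagomiR-638 minus mock as blue squares on the right of each pair, and black lines at the medians. Interferon-stimulated and mitotic genes shift mainly with antagomiR-638 (medians 1.21 and -1.32), ATF4, immediate-early and NF-kB genes mainly with miR-638 (0.54, 0.37 and 0.51), and the 2 sets of points share the same mock arrays.

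Genes called on opposite sides of mock numbered 23 of 11251 (0.204%), 12 lower and 11 higher with miR-638. The study looked for microRNA targets among genes lowered by miR-638 and raised by antagomiR-638, the direction of the 12 lower ones only. All 23 were called in the direct comparison. The 12 lower genes were TP53INP2, DKK1, TSPAN10, PLTP, PLAT, TENT5A, MYPN, AVPI1, HOXC13, OLFML2A, RTL8C and SLC25A42, and the 11 higher ones were ASNS, XBP1, PCK2, MTHFD2, ARHGDIB, E2F5, CTH, KIF4A, RPL22L1, SLC25A24 and SNHG1. AVPI1, HOXC13, OLFML2A, RTL8C, SLC25A42, RPL22L1, SLC25A24 and SNHG1 fall outside the rule for named genes and are given to complete the 23, after their values were seen.

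TP53INP2, whose product acts in autophagy and transcription and which the study followed up, read 5.86 and 5.83 with miR-638, 8.0 and 7.92 with antagomiR-638 and 7.02 and 7.0 in mock. Duplicates lay close together and the groups did not overlap. The difference was -2.11 ± 0.11 (adjusted p = 1.09e-05), made up of -1.16 with miR-638 and 0.95 with antagomiR-638, and mock stood at 0.45, where the midpoint test was not called (adjusted p = 0.5). The opposite pattern was kept in 5 of 6 fits with an array left out, and without antagomiR-638 replicate 1 only the miR-638 shift was called.

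DKK1, the gene of a secreted Wnt inhibitor, read 10.28 and 10.46 with miR-638, 12.43 and 12.32 with antagomiR-638 and 11.40 and 11.25 in mock (-2.01 ± 0.12, position 0.52, and -2.46 at its other kept probe). TSPAN10, a tetraspanin gene, read 6.36 and 6.41 with miR-638, 9.27 and 9.06 with antagomiR-638 and 7.32 and 7.18 in mock (-2.78 ± 0.12, position 0.69). PLTP, the gene of phospholipid transfer protein, read 5.69 and 5.91 with miR-638, 7.82 and 7.86 with antagomiR-638 and 6.66 and 6.58 in mock (-2.04 ± 0.12), but its other probe gave -0.31 and was not called. That other PLTP probe was near the detection limit (mean log2 intensity 4.57) and was not detected with miR-638. PLAT, tissue plasminogen activator, TENT5A, a poly(A) polymerase, and MYPN, a sarcomere protein gene, differed by -2.15, -1.56 and -1.70. SEMA3B, a guidance ligand, RTL9 and ALDH3B1, an aldehyde dehydrogenase, had shifts of opposite sign of which only that with antagomiR-638 was called.

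Of the genes in the other direction, XBP1, a transcription factor of the unfolded protein response, averaged 11.07 ± 0.095 on the miR-638 arrays (SD, n = 2) and read 8.71 and 8.73 with antagomiR-638 and 9.70 and 9.71 in mock, with no overlap. The difference was 2.35 ± 0.11 (adjusted p = 8.16e-06, 2.53 at its other kept probe) with mock at 0.42. XBP1 kept the opposite pattern in all 6 fits with an array left out. ARHGDIB, an inhibitor of small GTPases, read 8.67 and 8.86 with miR-638, 6.93 and 6.91 with antagomiR-638 and 7.75 and 7.69 in mock (1.84 ± 0.12). The cell cycle factor E2F5 and the chromosome motor KIF4A differed by 1.52 and 1.46 and had mock at 0.50 and 0.46. CENPQ and AUNIP, a kinetochore and a centrosome gene, had shifts of opposite sign that were not both called.

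The number of opposite genes depended on single arrays. Leaving out miR-638 replicate 1 gave 6 and leaving out its replicate 2 gave 5. The number was 2 without antagomiR-638 replicate 1, 4 without antagomiR-638 replicate 2, 4 without mock replicate 1 and 3 without mock replicate 2. ASNS kept the pattern in 4 of the 6 fits, PCK2 and CTH in 2, DKK1 and ARHGDIB in 1, and TSPAN10, PLAT, PLTP, TENT5A, MYPN, MTHFD2, E2F5 and KIF4A in none, although the direct calls of all 8 stayed in all 6.

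**Figure D5:**
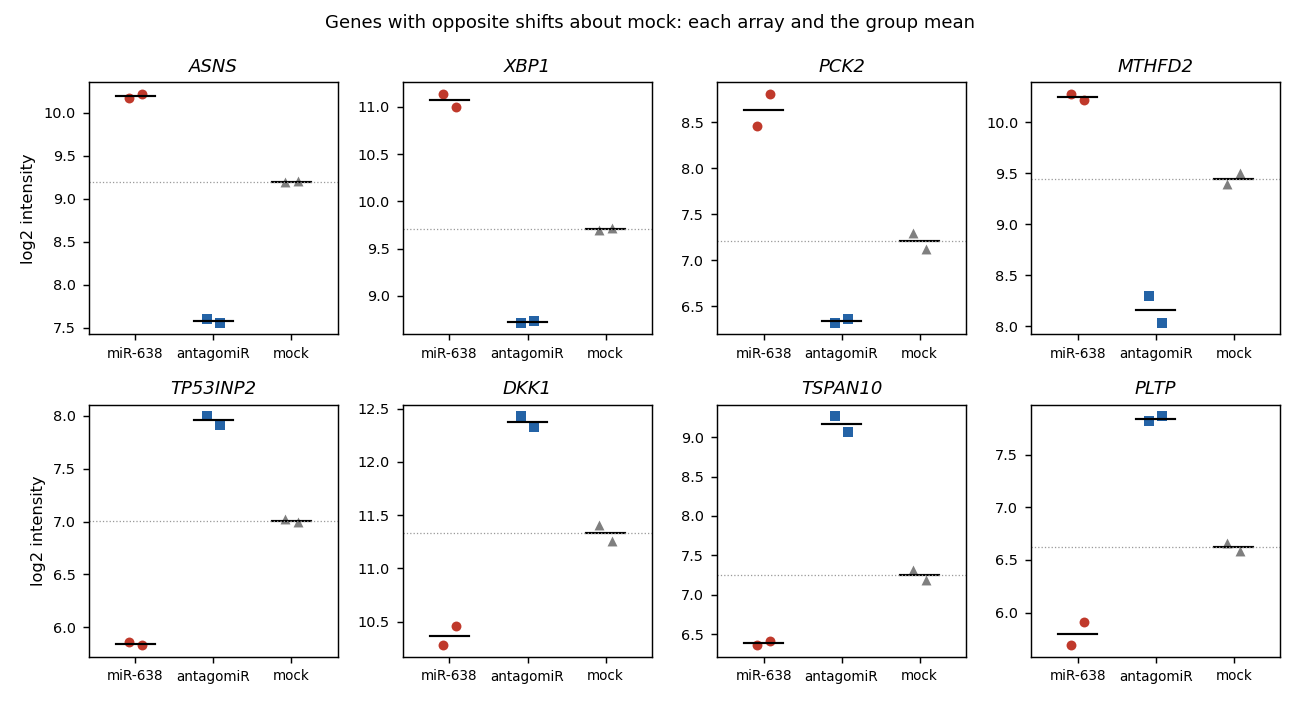
Log2 intensity (vertical axis, scaled for each gene) of each array of 8 genes called on opposite sides of mock, with miR-638, antagomiR-638 and mock from left to right, bars at the group means and a dotted line at the mock mean. ASNS, XBP1, PCK2 and MTHFD2 in the upper row lie above mock with miR-638 and below it with antagomiR-638, and TP53INP2, DKK1, TSPAN10 and PLTP in the lower row lie the other way round.

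The candidate targets that the study took forward were chosen on these arrays, so their direction is no independent evidence. Of 28 with a kept probe, all had a negative sign and 18 were lower with miR-638 than with antagomiR-638, against 8.63% of all genes, with a median of -0.64. TP53INP2 was the only 1 of them called on opposite sides of mock. The other 17 were APCDD1L and 5 more genes called above mock with antagomiR-638, TENM4 called below mock with miR-638, and 10 called in neither comparison with mock. APCDD1L, a Wnt inhibitor paralogue, read 7.10 and 6.94 with miR-638, 8.37 and 8.34 with antagomiR-638 and 7.05 and 7.03 in mock (-1.34 ± 0.12), with mock at the miR-638 level. TENM4, a cell adhesion protein gene, read 7.96 and 7.93 with miR-638, 9.06 and 9.09 with antagomiR-638 and 8.76 and 8.80 in mock (-1.13 ± 0.11), but its call against mock was lost in all 6 fits with an array left out. The DNA repair enzyme gene PARP3 and the complement inhibitor gene CD59 differed by -1.27 and -0.96. With an array left out, the call of CD59 above mock was lost in all 6 fits. PARP3 kept its call in 2 of the 6 and APCDD1L in all 6. Without miR-638 replicate 1 or 2 the count of 18 fell to 8 and 9, and without either antagomiR-638 array to 5. TFAP2A, a transcription factor of neural crest cells that the study followed up, read 8.30 and 8.06 with miR-638, 9.47 and 9.47 with antagomiR-638 and 9.04 and 9.16 in mock (-1.29 ± 0.13, adjusted p = 1.47e-04). It was called against mock with miR-638 only, at a position of 0.29 at which the midpoint test was not called (adjusted p = 0.14), and that call was lost in all 6 fits with an array left out. DNM2, which hosts miR-638, read 5.53 and 5.62 with miR-638, 5.54 and 4.99 with antagomiR-638 and 5.62 and 5.49 in mock, with overlapping arrays (0.31 ± 0.17, adjusted p = 0.213).

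Lysosomal and autophagy genes, which serve the breakdown of cell contents, were set against 8.63% of all genes lower with miR-638 than with antagomiR-638. Of 44 lysosomal genes 15 were lower and 0 higher (limma; 29 and 1 at an unadjusted p under 0.05), with a median of -0.46, and of 42 autophagy genes 9 were lower and 0 higher (15 and 2 at an unadjusted p under 0.05), with a median of -0.23. In either direction 34.1% of the lysosomal and 21.4% of the autophagy genes were called, the second share being near the 16.6% of all genes. TPP1, a lysosomal protease, read 8.99 and 9.16 with miR-638, 10.11 and 10.13 with antagomiR-638 and 9.08 and 8.94 in mock. TPP1 (-1.05 ± 0.12), FUCA1, a fucosidase (-1.24 ± 0.12), and LIPA, the acid lipase (-0.97 ± 0.12), had mock at the miR-638 level, at 1.07, 1.06 and 0.98. Over the 15 called lysosomal genes the median position of mock was 0.71, with mock between the treatments for 12 and beyond miR-638 for 3. Of the 15, 6 were called with antagomiR-638 only and 9 in neither comparison with mock, and the midpoint test was called for 2. Among the autophagy genes were TP53INP2, a candidate chosen by the study from the same arrays, the autophagy regulators TP53INP1 (-1.51) and DRAM1 (-0.95), and the cargo receptors OPTN (-0.93) and SQSTM1 (-0.71). The counts of 15 and 9 fell to 5 and 5 without miR-638 replicate 1, 6 and 4 without its replicate 2, 3 and 3 without antagomiR-638 replicate 1, 5 and 4 without antagomiR-638 replicate 2, and 4 and 4 with intensities floored at 16.

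A few genes shifted from mock to the same side with both treatments, which the direct comparison subtracts. In all 93 genes did so, 77 upward and 16 downward, and 77 of the 93 were not called between the treatments. C3orf52, a membrane protein gene, read 9.20 and 9.22 with miR-638, 8.28 and 8.16 with antagomiR-638 and 7.18 and 7.18 in mock, and kept this pattern whichever array was left out. CXCL5, a neutrophil chemokine, read 9.35 and 9.19 with miR-638, 8.33 and 8.30 with antagomiR-638 and 7.48 and 7.25 in mock, but was not called between the treatments without either antagomiR-638 array (adjusted p up to 0.012).

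Of the remaining groups, TGF-beta and YAP targets, genes of invasive melanoma cells and heat-shock chaperones had 36.8%, 33.3% and 30% of their kept genes called in either direction, against 16.6% of all genes. Among 20 heat-shock chaperones 5 were lower with miR-638 and 1 higher, led by HSPA1A (-1.66) and HSPA1B (-1.11), near-identical copies whose probes may read both. HSPA1B read 9.19 and 9.06 with miR-638, 10.14 and 10.34 with antagomiR-638 and 10.42 and 10.60 in mock, so that it was below mock with miR-638 and mock lay beyond antagomiR-638. Of 27 genes of invasive melanoma cells 7 were lower and 2 higher, among them S100A2, a calcium-binding protein gene (-1.29), and FGF2, the growth factor (1.17). Of 19 targets of TGF-beta and YAP 4 were higher, among them TAGLN, an actin-binding protein gene (1.59), and the kinase gene NUAK2 (1.86), and 3 were lower, among them ACTA2, a smooth muscle actin (-1.5). The other groups had 2.08% to 20% of their kept genes called. Of 48 ribosomal protein genes 1 was called (RPL3, 0.56), of 44 genes of oxidative phosphorylation 3 (COX6B1, UQCRQ and NDUFB10, all lower), of 31 glycolysis and hypoxia genes 4, and of 19 cholesterol synthesis genes 2, TM7SF2, a sterol reductase (-1.93), and ACAT2 (0.52). Of 15 genes of the microRNA pathway 2 were higher with miR-638, DICER1, which cuts microRNA precursors (0.86), and XPO5, which exports them (0.72). Of 21 folding genes of the endoplasmic reticulum 3 were higher, XBP1, HYOU1 (0.68) and DNAJB9 (0.60). At their other kept probes RPL3 gave 0.04, FGF2 0.40, DICER1 0.52, HYOU1 0.57 and ACAT2 0.79, none of them called. The other FGF2 probe was near the detection limit (mean log2 intensity 4.68) and was not detected with antagomiR-638. MC1R, the melanocortin receptor, was the 1 called melanocyte gene (-1.20). These counts rested on single arrays. Without antagomiR-638 replicate 1 the counts of lower genes were 2 for heat shock, 1 for the invasive list, 1 for TGF-beta and YAP and 0 for oxidative phosphorylation, and the counts of higher genes were 0 for the microRNA pathway, 1 for folding and 0 for ribosomal proteins. The calls of RPL3, COX6B1, UQCRQ, NDUFB10, ACAT2, XPO5, HYOU1, DNAJB9, PFKFB4 and GPI were lost without any of the 4 treated arrays, those of MC1R and HSPB8 without miR-638 replicate 1 or antagomiR-638 replicate 1, that of DICER1 without antagomiR-638 replicate 1 and that of VEGFA without miR-638 replicate 1 or either antagomiR-638 array.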

How the data were processed

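RNA of 6 samples had been hybridised to Illumina HumanHT-12 v4 arrays, and per the labels the authors used lumi in R (version not given in the sources used here). The deposited intensity values are linear, background-subtracted (26.2% lie below 0) and already quantile-normalized, so a shift of all transcripts in 1 direction cannot be seen. The deposited detection p-values come from the scanner software and move in steps of 1 in 770. From the intensities, the normexp model of limma 3.58.1 (R 4.3.3, offset 16) was fitted with the detection p-values, followed by quantile normalization and log2, which draws fold changes of dim probes toward 0. A symbol was given for 30112 of 47319 probes by the platform's table, 30073 of which matched a RefSeq gene. Each gene was read from its brightest kept probe (mean log2), and 2997 genes had several.

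Group means were fitted to all 6 arrays with limma (3 residual and 6.38 prior degrees of freedom). Differences between miR-638 and antagomiR-638, of each from mock, and of mock from their midpoint were tested two-sided, with Benjamini-Hochberg adjustment over 19474 probes and calls at 0.01. A probe not detected on either array of a group has its fold given as a lower bound: the mean of the bright group against the detection limit of the dim one. Named genes were the 15 largest differences in each direction without overlap, 10 opposite genes in each direction, up to 8 genes on the same side of mock, up to 4 called members of each list, up to 5 candidates and the genes the study followed up. Some items are not reported here. Other genes named in passing belong to these lists. The genes, lists and rules were chosen with earlier results of these data known. The model was also run on simulated data with 200 changed probes, shifted with miR-638 only, and independent normal noise. That run does not test the background step, the nature of the duplicates or the classes about mock. Alternatives changed the background step, scaling, filter, threshold, spread, arrays, weights, block and probe choice. Replicate numbers did not pair the samples: deviations of same-numbered arrays from their group means correlated at -0.07 to -0.06.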

Additional observations from a re-analysis of the deposited data

How the results depend on the processing

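Between miR-638 and antagomiR-638, 1870 genes were called, 899 higher and 971 lower. With no further background correction and intensities floored at 16, or from the value table of the series floored alike, 580 were called, 306 higher and 274 lower, and 503 of the 1870 remained. At an adjusted p under 0.05 there were 3417 (1638 and 1779), and with the spread of each probe alone 0 (0 and 0), with 4094 at an unadjusted p under 0.05 and a lowest adjusted p of 0.0174. With no detection filter 645 were lower. With 1 array left out the counts were 580 to 1727, 303 to 835 higher and 277 to 892 lower.

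The 23 genes opposite about mock became 2 with the floor of 16, by either table, 65 with an offset of 50, 6 with no detection filter, 125 at an adjusted p under 0.05, 0 with the spread of each probe alone, 71 with a trended and robust spread, and 2 to 6 with 1 array left out. Mock departed from the midpoint for 511 genes, and in the same order of settings for 32, or 34 from the value table, 995, 151, 1588, 0, 1062 and 58 to 215. Among genes detected on all 4 arrays with a mean log2 intensity of 7 or more, an alternative chosen after seeing the data, these were 58 and 804.

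Replicate numbers did not pair the samples, and the fit with the replicate number as a block called 1496 genes (723 higher, 773 lower), 8 opposite genes and 259 off the midpoint. All other settings kept the counts within 1.5 times. With the floor of 16 further named genes lost their direct call. Among them were IFI6, TFAP2A, PARP3, HSPA1A, HSPA1B, TPP1, TM7SF2, ACTA2 and TAGLN (limma adjusted p of 0.0101 to 0.0296). Of the named genes only BAX, which was not called, changed sign, to 0.02 without miR-638 replicate 2. The number of arrays, and for dim probes the signal over background, limit these values.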
